A study of Drosophila mojavensis with 95 samples.

Results

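The comparison described here sets San Quintin against Punta Prieta, both Baja California populations of the cactus fly *Drosophila mojavensis*, after 18 h of desiccation. Its members are the arrays whose titles carry the codes of these populations at 18 h, 16 of the 95 arrays of the series. Of these, 9 came from Punta Prieta (5 from flies reared on agria and 4 on organ pipe cactus) and 7 from San Quintin (4 on agria and 3 on organ pipe). All were wild-type virgin females, and RNA was taken from the whole organism. Unless another comparison is named, Punta Prieta was subtracted from San Quintin in the differences below and both diets counted equally. A positive value is then a higher level in San Quintin.

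The series as a whole crossed 4 populations with 2 cactus diets and 3 times (0, 9 and 18 h), on one-colour NimbleGen arrays read in the Cy3 channel. The same populations at 0 h (16 arrays) and 9 h (15 arrays) share no array with the 18 h comparison and serve here to describe it. The Sonoran populations at 18 h (Punta Onah, and Organ Pipe National Monument, which the labels spell Manument; 17 arrays) serve as the other pair from a single region. The labels give no age and name no flies held for 18 h with water, so desiccation cannot be told apart from the hours elapsed. They give each array a stock number of its own and do not say how many lines stand for a population, or whether replicates were separate cultures. The p-values therefore measure only the spread between these arrays, which may in part be technical.

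*Drosophila mojavensis* breeds in the rotting tissue of columnar cacti in the deserts of north-western Mexico and the south-western United States. Flies of Baja California breed mainly in agria cactus and those of mainland Sonora mainly in organ pipe cactus, and the populations have long been used to study divergence between hosts. Insects lose water through the cuticle, the open spiracles and excretion, and flies of dry habitats are known for slow water loss, which rests on cuticular lipids, the control of gas exchange and retention by the gut and Malpighian tubules.

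Each array gave 14528 values on a log2 scale, so a difference of 1 is a doubling of signal. Across the 16 arrays the array median ran from 10.17 to 10.40. No detection calls were used here, so how far a dim transcript lay above background is unknown, and the number of arrays limits the precision. Since whole flies were measured, fewer cells of a type and less RNA per cell cannot be told apart. Transcripts carry FlyBase identifiers, none of which could be matched to a gene, so they are given by identifier, with no gene name or function, and the labelled tissue could not be checked against marker genes. Correlations over transcripts between arrays of San Quintin had a median of 0.991 (0.976 to 0.997), those between arrays of Punta Prieta 0.985 (0.964 to 0.994), and those across the populations 0.983 (0.957 to 0.995). In Punta Prieta, agria arrays 1 and 5 and organ pipe arrays 2 and 3 correlated, on average, more closely with the San Quintin arrays than with the others of their own population. All 7 San Quintin arrays correlated more closely with their own population. At 0 h, organ pipe arrays 3 and 4 of Punta Prieta went against their label. Array 3 correlated at 0.9828 with the other Punta Prieta arrays and at 0.9919 with San Quintin, and array 4 at 0.9816 with Punta Prieta and at 0.992 with Punta Onah. They were kept as labelled, and results that use them are also given without them. Where they lie nearer to San Quintin than the other Punta Prieta arrays do, leaving them out must widen the 0 h difference. Agria array 2 of Punta Prieta at 0 h also correlated more closely with the other populations (0.9872 with San Quintin, 0.9842 with Punta Onah and 0.9826 with Organ Pipe National Monument) than with its own (0.9815). In FBtr0162063, the transcript that set the populations furthest apart at 0 h, it stood at 12.53 among the Punta Prieta arrays. That transcript was picked from a fit that held this array, so its level there is no separate check of the label. Without agria array 2, 4529 transcripts were called at 0 h.

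After 18 h the populations differed in many transcripts by small amounts. limma called 1594 of 14528 transcripts (11%) at an adjusted p under 0.05, 1063 of them higher in San Quintin (7.32%) and 531 lower (3.66%). At an unadjusted p under 0.05 there were 4509, where 726 would be expected with no effect. The median absolute difference over all transcripts was 0.13, and the median 95% confidence interval of a difference reached 0.20 to either side. Called differences of at least 1.5-fold numbered 201 (1.38%), with 122 lower in San Quintin (0.84%) against 79 higher (0.544%). This split and the size of the set depended on the processing, as given next, and with the shared component of array-to-array spread (described further on) removed the set held 47 lower and 25 higher. At 2-fold there were 16, of which 13 were lower. The transcripts next to the 1.5-fold limit differed by 0.586 just inside and 0.584 just outside, in absolute log2 units.

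The balance of higher against lower calls depended on the scaling of the arrays. As deposited, 66.7% of calls were higher in San Quintin. San Quintin arrays had the higher medians, 10.36 ± 0.0404 (SD, n = 7) against 10.27 ± 0.0553 (SD, n = 9), a difference of 0.09 (exact permutation test within diets, two-sided, p = 0.00272, adjusted over 4 array measures p = 0.0109). With each array centred on its median, 2160 transcripts were called and 22.3% of them were higher, and with quantile normalization of the transcript values 1181 were called and 50.6% were higher. Of the 201 large differences 200 were still called in the same direction after centring, a shift that is small beside the 1.5-fold limit. The make-up of the large differences moved: at least 1.5-fold, 36 were higher and 284 lower with each array centred, and 86 higher and 126 lower with quantile normalization. The direction of a small difference is therefore one relative to the array's overall level.

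The difference varied with level. With transcripts ranked by their mean over all 95 arrays into 5 classes, the median difference was -0.08 in the dimmest class, -0.10 in the next, 0.13 in the middle class, 0.08 in the fourth and 0.02 in the brightest. Centring shifted every class down by 0.09, so that 4 of the 5 medians were then negative and the middle class stood at 0.04. Among the 79 transcripts at least 1.5-fold higher in San Quintin, 65 lay in the lower classes (26 in the dimmest and 39 in the next) and 1 in the brightest. Those lower classes had negative medians all the same. Of the 122 lower transcripts, 14 lay in the dimmest class, 25 in the next, 51 in the middle class, 22 in the fourth and 10 in the brightest. Each class held 2905 or 2906 transcripts.

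**Figure D1:**
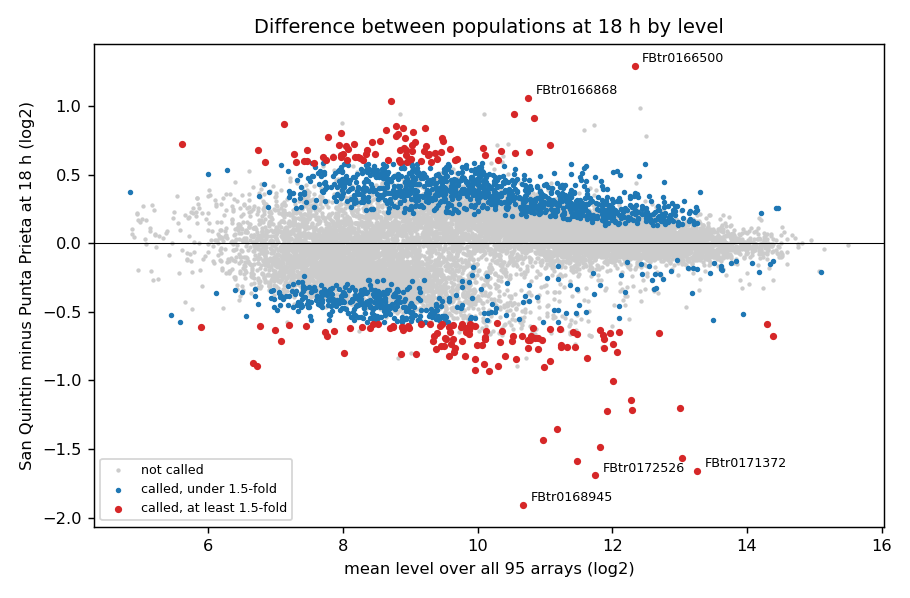
San Quintin minus Punta Prieta at 18 h (log2, vertical) against the mean level over all 95 arrays (log2, horizontal), 1 point per transcript. Grey points were not called, blue points were called with a difference under 1.5-fold and red points are the 201 called with at least 1.5-fold; the largest differences, down to -1.91, are lower in San Quintin and lie at mean levels above 10.

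Of the transcripts higher in San Quintin, FBtr0166500 differed most. On agria its log2 levels in Punta Prieta were 11.23, 10.59, 13.20, 11.18 and 12.61, and in San Quintin 13.48, 12.86, 13.67 and 13.23. On organ pipe Punta Prieta had 11.39, 11.93, 13.08 and 10.37, against 11.17, 13.97 and 13.05 for San Quintin. The populations overlapped on each diet, since agria array 3 and organ pipe array 3 of Punta Prieta reached San Quintin levels and organ pipe array 1 of San Quintin lay among the lower Punta Prieta arrays. The fitted difference was 1.29 ± 0.422 (SE), or 2.45-fold (limma, adjusted p = 0.0372). That call was lost in 8 of the 16 fits that left out 1 array (adjusted p up to 0.159), in a fit of these 4 groups alone (0.0921) and with a weight for each group (0.0689). FBtr0166500 varied widely within groups at 9 h as well, with Punta Prieta arrays from 9.69 to 13.75 and San Quintin arrays from 9.71 to 13.79, and the populations differed there by -0.07 (adjusted p = 0.998).

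FBtr0166868 was higher in San Quintin by 1.06 ± 0.282 (SE), or 2.08-fold (limma, adjusted p = 0.013), and kept its call without any single array (adjusted p up to 0.0443). In Punta Prieta its levels were 10.47, 10.57, 10.77, 10.28 and 9.48 on agria and 10.30, 10.79, 9.93 and 10.54 on organ pipe. San Quintin had 11.91, 11.16, 11.84 and 10.53 on agria and 11.02, 11.72 and 11.63 on organ pipe. Only agria array 4 of San Quintin lay inside the Punta Prieta range. The difference had the same size on either diet, 1.05 on agria and 1.07 on organ pipe, although neither diet alone passed the threshold (adjusted p = 0.1 and 0.15). At 0 h it was 1.70 (adjusted p = 9.28e-06), and 2.31 without the organ pipe arrays of Punta Prieta that went against their label. At 9 h it was 0.16 (adjusted p = 0.998), when the means were 10.07 in San Quintin and 9.91 in Punta Prieta.

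The largest differences of all were lower levels in San Quintin. FBtr0168945 in Punta Prieta had 10.21, 7.91, 10.72, 12.28 and 11.75 on agria and 10.85, 11.79, 7.89 and 8.18 on organ pipe. In San Quintin it had 8.20, 8.45, 7.99 and 7.67 on agria and 7.77, 9.36 and 7.94 on organ pipe. San Quintin arrays were thus low throughout, while Punta Prieta arrays were spread over more than 4 log2 units, and agria array 2 and organ pipe arrays 3 and 4 fell to the San Quintin level. The difference was -1.91 ± 0.472 (SE), or 3.75-fold lower (limma, adjusted p = 0.00889). It kept its call without any single array (adjusted p up to 0.0335) and lost it in a fit of these 4 groups alone (adjusted p = 0.0757), where the spread came from fewer arrays.

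FBtr0172526 ordered the arrays in much the same way. Punta Prieta had 11.14, 9.67, 11.48, 13.02 and 12.52 on agria and 11.54, 12.35, 9.87 and 10.49 on organ pipe, against 9.66, 9.89, 9.22 and 9.39 on agria and 9.43, 10.13 and 9.55 on organ pipe in San Quintin. Again agria array 2 and organ pipe array 3 of Punta Prieta were the arrays that reached the San Quintin range, and agria array 4 was the highest. The difference was -1.69 ± 0.341 (SE), or 3.23-fold lower (limma, adjusted p = 0.00168), and it held its call under each of the 11 alternatives and without any single array. At 0 h FBtr0168945 and FBtr0172526 were lower in San Quintin by similar amounts, -2.45 (adjusted p = 0.000141) and -1.93 (adjusted p = 3.16e-05), and without the organ pipe arrays that went against their label by -3.33 and -2.64. At 9 h both stood high in every array of either population: FBtr0168945 ran from 13.56 to 13.83 in arrays of Punta Prieta and from 13.33 to 13.73 in those of San Quintin. From 9 to 18 h FBtr0168945 changed by -3.55 in Punta Prieta against -5.28 in San Quintin, and FBtr0172526 by -3.16 against -4.64. The change in the population difference between 9 and 18 h did not pass the test for either (adjusted p = 0.185 and 0.159). The Sonoran means at 18 h were closer to San Quintin, at 8.29 (Punta Onah) and 7.79 (Organ Pipe National Monument) for FBtr0168945, and at 10.19 and 9.44 for FBtr0172526. In this they were not typical. Of the 122 transcripts at least 1.5-fold lower in San Quintin, the Sonoran mean lay nearer to San Quintin in 17 (13.9%), against 26.9% of all transcripts.

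**Figure D2:**
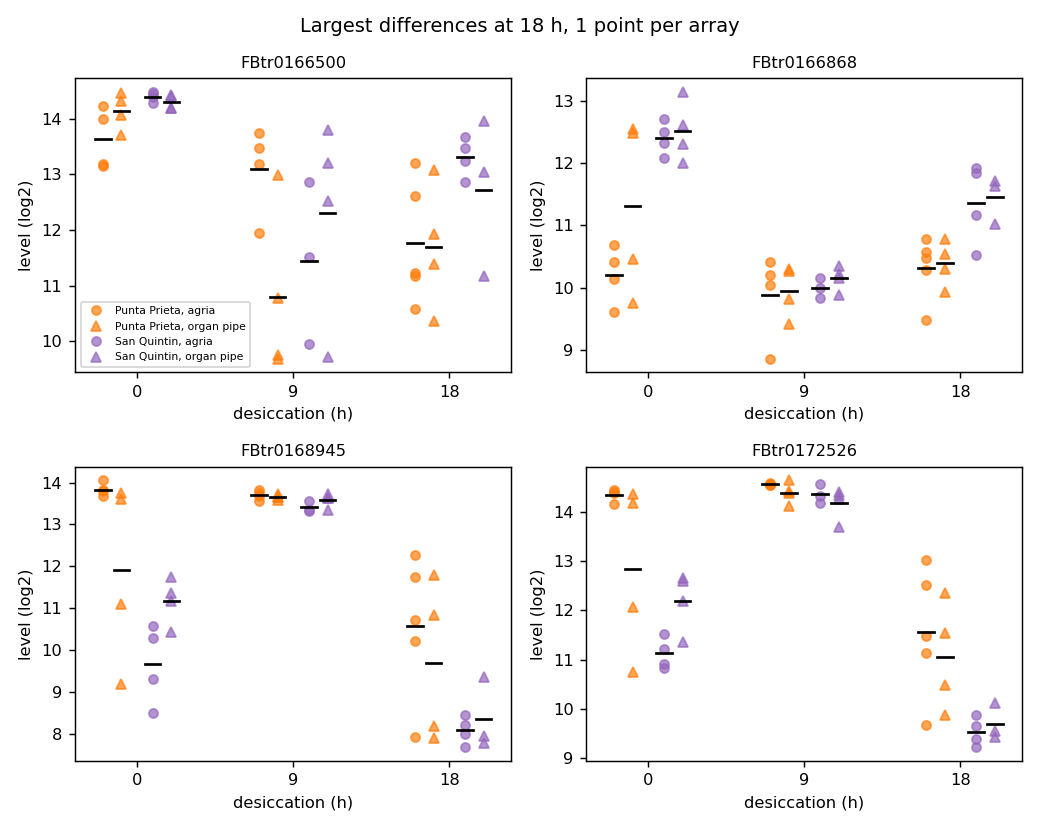
Log2 level (vertical) of the transcripts with the 2 largest differences in each direction, by hours of desiccation (horizontal), with 1 point per array, orange for Punta Prieta, purple for San Quintin, circles for agria, triangles for organ pipe and bars for group means. At 18 h the San Quintin arrays of FBtr0168945 sit between 7.67 and 9.36 and those of Punta Prieta between 7.89 and 12.28, while at 9 h all arrays sit above 13.

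Arrays of the populations did not overlap in 76 transcripts (0.523%), 64 of them higher in San Quintin (0.441%) and 12 lower (0.0826%). Of the 201 large differences, 20 were among them. Spread within a population was wider in Punta Prieta. Its SD, here taken about the mean of each diet, exceeded that of San Quintin in 73.7% of all transcripts, with a median SD of 0.217 against 0.146. Among the transcripts called at least 1.5-fold higher in San Quintin the Punta Prieta SD was the larger in 83.5%, and among those lower in 64.8%.

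On each diet alone fewer transcripts passed. Agria called 129 (0.888%), of which 95 were higher (0.654%) and 34 lower (0.234%). Organ pipe called 95 (0.654%), of which 70 were higher (0.482%) and 25 lower (0.172%). Centring turned these splits, from 73.6% higher to 28.8% on agria and from 73.7% to 14% on organ pipe, and with quantile normalization they were 35.6% and 42.9%. Leaving out 1 array moved the agria count between 4 and 1030 and the organ pipe count between 0 and 697. The lowest counts came without San Quintin agria array 3 and without San Quintin organ pipe array 2, and the highest without Punta Prieta agria array 1 and without Punta Prieta organ pipe array 2. The limma test of the difference between diets called 0 transcripts. Before adjustment 1160 had a p under 0.05, and the lowest adjusted p was 0.401. Its median confidence interval reached 0.41 to either side, so diet differences of that size could not be detected in many transcripts, and with array weights the same test called 808. Across 14528 transcripts, which are not independent replicates, the agria and organ pipe differences correlated at r = 0.553. They share no array, but both carry the shared component of array-to-array spread described further on, and with that component removed r was 0.358.

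The transcripts called on each diet separately numbered 5, and they are named because their values were seen. FBtr0166679, one of the brightest transcripts, had the smallest adjusted p of the whole 18 h comparison, with a difference of -0.68 ± 0.102 (SE; limma, adjusted p = 6.82e-05). Its Punta Prieta levels were 14.45, 14.62, 14.30, 14.88 and 14.72 on agria and 14.81, 14.75, 14.58 and 14.11 on organ pipe, and those of San Quintin 13.87, 13.99, 13.71 and 13.97 on agria and 14.04, 13.92 and 13.78 on organ pipe. Every San Quintin array lay below every Punta Prieta array. At 0 h the difference in FBtr0166679 was -0.25 (adjusted p = 0.063) and at 9 h -0.08 (adjusted p = 0.998).

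FBtr0171372 was lower in San Quintin, with a difference of -1.66 ± 0.27 (SE; limma, adjusted p = 0.000268). Punta Prieta had 12.48, 14.05, 12.18, 13.76 and 13.92 on agria and 13.90, 14.20, 13.54 and 12.23 on organ pipe, and San Quintin 11.75, 12.47, 11.71 and 11.93 on agria and 11.34, 11.51 and 11.55 on organ pipe. In Punta Prieta the levels fell into a higher run of 6 arrays and a lower run of 3, and only agria array 2 of San Quintin reached the lower run. FBtr0168182 was higher in San Quintin by 0.75 ± 0.126 (SE; adjusted p = 0.000365), with arrays from 10.00 to 10.58 against 9.19 to 9.84 in Punta Prieta, so that the arrays did not overlap. FBtr0168357 differed by -0.70 ± 0.122 (adjusted p = 0.000538) and FBtr0169854 by 0.56 ± 0.0964 (adjusted p = 0.000365), and both overlapped in a few arrays.

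The same comparison in undesiccated flies asks which differences were there before the treatment. At 0 h limma called 2624 transcripts (18.1%), 1494 higher in San Quintin (10.3%) and 1130 lower (7.78%), with 427 at least 1.5-fold (2.94%). Without the organ pipe arrays of Punta Prieta that went against their label the count was 4015, 2012 higher and 2003 lower. The 0 h count also ranged from 1044 without Punta Prieta organ pipe array 2 to 4529 without Punta Prieta agria array 2. Transcripts called in the same direction at both times numbered 579, which is 36.3% of the 18 h calls and 22.1% of the 0 h calls. Without the arrays in question 696 of the 1594 were called in the same direction at 0 h (43.7%, against 24.9% of all transcripts).

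Among the 201 large differences at 18 h, 197 had the same direction at 0 h (98%), against 75.6% of all transcripts, and 87 were called in that direction (43.3%, against 16.3% of all). Without the arrays in question these were 195 (97%, against 76% of all) and 116 (57.7%, against 24.9% of all). With the shared component removed, the 0 h direction was the same in 17 of the 25 higher transcripts (68%) and 42 of the 47 lower ones (89.4%), against 59.7% of all. The median difference of the 79 higher transcripts was 0.67 at 18 h and 0.53 at 0 h, and that of the 122 lower ones -0.69 and -0.44. These transcripts were chosen for their size at 18 h, which favours a smaller value at any other time. Across transcripts the 18 h and 0 h differences, which share no array, correlated at r = 0.722, and at 0.721 without the arrays in question.

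At 9 h few differences between the populations were called from the values as deposited, with every array weighted alike. limma called 3 transcripts (0.0206%), all higher in San Quintin. Before adjustment 421 had a p under 0.05, fewer than the 726 expected with no effect. The low count depended on the weighting, since array weights gave 1310 calls at 9 h, 752 higher and 558 lower. The root mean square difference over all transcripts was 0.109 at 9 h, against 0.232 at 18 h and 0.27 at 0 h, and the median confidence interval at 9 h was about as wide, at 0.21 to either side. Of the 201 transcripts, 76 had the same direction at 9 h as at 18 h (37.8%, against 40.9% of all transcripts). Across all transcripts the 18 h and 9 h differences correlated at r = -0.206, and at 0.176 with the shared component of array-to-array spread (described further on) removed, so the sign of this relation turned with the processing. The median 9 h difference of the 122 lower transcripts was 0.13 and that of the 79 higher ones 0.03. The limma test of the change in the population difference from 9 to 18 h called 0 transcripts. Before adjustment 2762 had a p under 0.05, and the lowest adjusted p was 0.0524. It called 35 without Punta Prieta agria array 1 at 9 h and 5561 with array weights, so the count of 0 depended on the weighting.

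**Figure D3:**
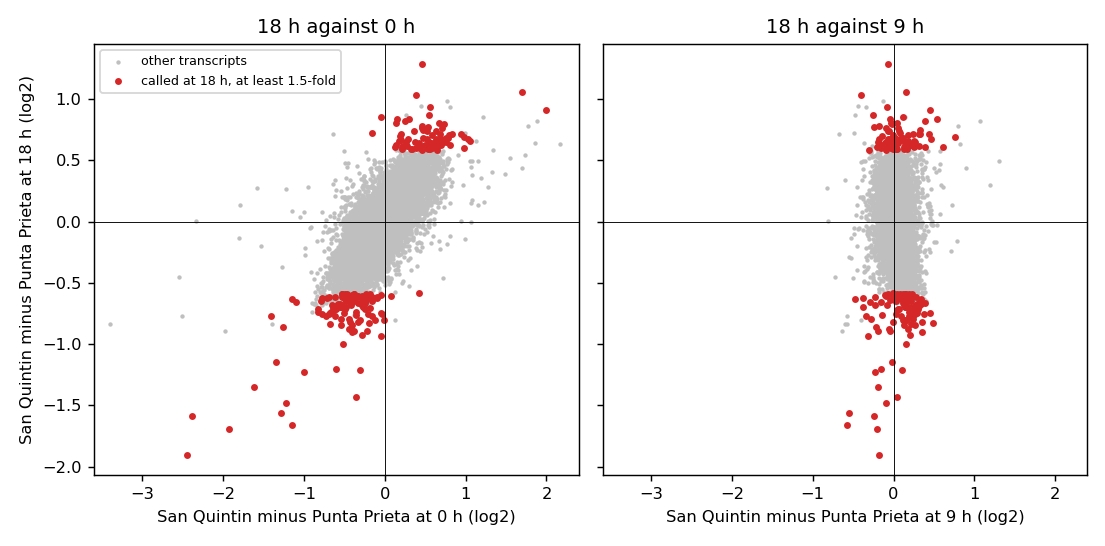
San Quintin minus Punta Prieta at 18 h (log2, vertical) against the same difference at 0 h (left, horizontal) and at 9 h (right, horizontal), 1 point per transcript, with the 201 transcripts called at 18 h with at least 1.5-fold in red. At 0 h 197 of the red points lie on the side of their 18 h sign, and at 9 h 76 do and most red points lie near 0.

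The 3 transcripts called at 9 h are named because their values were seen. FBtr0171629 differed by 1.31 ± 0.165 (SE; limma, adjusted p = 2.52e-07) at 9 h and by 1.15 (adjusted p = 1.87e-07) at 0 h. At 18 h the difference over both diets was 0.50 ± 0.161 (SE; limma, adjusted p = 0.0364). On agria San Quintin had 9.38, 8.94, 9.06 and 9.60 and Punta Prieta 8.19, 8.41, 8.21, 8.09 and 7.94, with no overlap and a difference of 1.08 (adjusted p = 0.00618). On organ pipe San Quintin had 7.57, 8.23 and 7.90 and Punta Prieta 8.07, 7.73, 7.84 and 8.30, with overlap and a difference of -0.09 (adjusted p = 0.886). The difference between diets was -1.16 ± 0.322 (SE) and did not pass the test over all transcripts (adjusted p = 0.432). FBtr0171630, whose identifier is the next in number, had the same order of differences, with 0.97 at 0 h, 1.19 at 9 h and 0.30 (adjusted p = 0.206) at 18 h.

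FBtr0175465 was higher in San Quintin by 0.57 ± 0.0974 (SE; limma, adjusted p = 0.000365) at 18 h and by 0.57 (adjusted p = 0.000875) at 9 h, and by 0.19 (adjusted p = 0.135) at 0 h. At 18 h its San Quintin arrays had 12.88, 13.18, 12.99 and 12.98 on agria and 12.97, 12.75 and 13.13 on organ pipe, and its Punta Prieta arrays 12.42, 12.73, 12.26, 12.12 and 12.18 on agria and 12.45, 12.37, 12.57 and 12.49 on organ pipe. The populations did not overlap, although organ pipe array 2 of San Quintin and agria array 2 of Punta Prieta were close. Of the transcripts called at 9 h, it was the one whose difference was as large at 18 h.

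The population difference itself changed between 0 and 18 h in 93 transcripts (0.64%), 75 with a higher value at 18 h (0.516%) and 18 with a lower one (0.124%). At an unadjusted p under 0.05 there were 1295. Centring left the count at 93 with 63 positive and 30 negative, and without the organ pipe arrays that went against their label there were 213, 145 positive and 68 negative. All 75 with a positive change were lower in San Quintin at 0 h, and their median difference went from -0.51 at 0 h through -0.03 at 9 h to 0.13 at 18 h. The 18 with a negative change went from 0.47 through -0.01 to -0.19. A change of this sign is more readily called where the 0 h difference is large and opposite, so these medians describe the choice as well as the transcripts. The difference was the smaller at 18 h, in absolute size, in 62 of the 75 and 12 of the 18.

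FBtr0162063 had the largest positive change, 2.57 ± 0.482 (SE; limma, adjusted p = 0.000693). At 0 h its Punta Prieta levels were 12.16, 12.53, 12.46 and 12.35 on agria and 12.19, 12.22, 8.60 and 7.81 on organ pipe, the last pair being the arrays that went against their label, and those of San Quintin were 8.16, 7.35, 7.77 and 7.48 on agria and 8.33, 8.74, 8.02 and 7.26 on organ pipe. The other 6 Punta Prieta arrays lay more than 3 log2 units above every San Quintin array. At 9 h San Quintin arrays stood between 10.84 and 12.16 and those of Punta Prieta between 11.54 and 12.33, and at 18 h the ranges were 6.43 to 7.50 and 7.51 to 9.10. All San Quintin arrays at 18 h, and most at 0 h, lay below 8.29, the highest mean of the dimmest class. Most Punta Prieta arrays at 18 h did so too. How far such levels stood above background is unknown. The population difference was -3.40 (adjusted p = 1.57e-11) at 0 h and -0.83 (adjusted p = 0.0897) at 18 h. Without the arrays in question the change was 3.57. Those were the lowest Punta Prieta arrays at 0 h, so leaving them out was bound to enlarge the change. In a fit of the groups of this comparison alone the call was lost (adjusted p = 0.12). The Sonoran populations were low at each time, with means from 7.57 to 8.79.

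FBtr0162270 changed by 2.34 ± 0.358 (SE; limma, adjusted p = 1.72e-05). At 0 h Punta Prieta had 9.85, 10.67, 10.72 and 10.77 on agria and 10.08, 10.31, 7.60 and 7.25 on organ pipe, and San Quintin ran from 6.98 to 7.68. At 18 h Punta Prieta ran from 6.55 to 7.19 and San Quintin from 6.93 to 7.21, a difference of 0.00 (adjusted p = 0.996). All these 18 h levels lay below 8.29, the highest mean of the dimmest class, and how far they stood above background is unknown. From 0 to 18 h the mean changed by -2.63 in Punta Prieta and by -0.29 in San Quintin. Without the arrays that went against their label, again the lowest of Punta Prieta at 0 h, the change was 3.03.

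FBtr0166270 changed in the other sense, by -1.004 ± 0.194 (SE; limma, adjusted p = 0.00111), and the populations differed in opposite directions at the ends of the series. At 0 h San Quintin had 10.74, 10.99, 10.76 and 10.57 on agria and 10.93, 10.49, 10.59 and 10.96 on organ pipe, against 10.20, 9.81, 10.17 and 10.68 and 10.62, 10.33, 10.53 and 10.33 in Punta Prieta. At 18 h San Quintin had 9.77, 9.82, 9.49 and 9.75 on agria and 8.96, 9.30 and 9.50 on organ pipe, against 10.17, 10.18, 10.13, 10.32 and 10.03 and 10.17, 9.59, 9.69 and 10.41. San Quintin was thus the higher at 0 h by 0.42 (adjusted p = 0.0276) and the lower at 18 h by a difference of -0.59 (adjusted p = 0.00638), with some overlap at either time. At 9 h the difference in FBtr0166270 was -0.01 (adjusted p = 0.998). The call of the change held under each of the 11 alternatives and without any single array (adjusted p up to 0.00972).

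FBtr0165237 changed by -1.18 ± 0.287 (SE; limma, adjusted p = 0.0208). At 0 h organ pipe flies of San Quintin had 11.21, 11.58, 11.33 and 9.81, and 3 of these arrays lay above all others of either population, while agria flies of San Quintin had 10.13, 9.94, 10.21 and 8.91. At 18 h San Quintin ran from 7.85 to 8.86 and Punta Prieta from 8.66 to 9.37. Its call was lost under 4 alternatives (adjusted p up to 0.159) and in 5 of the 32 fits that left out 1 array (adjusted p up to 0.0803).

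**Figure D4:**
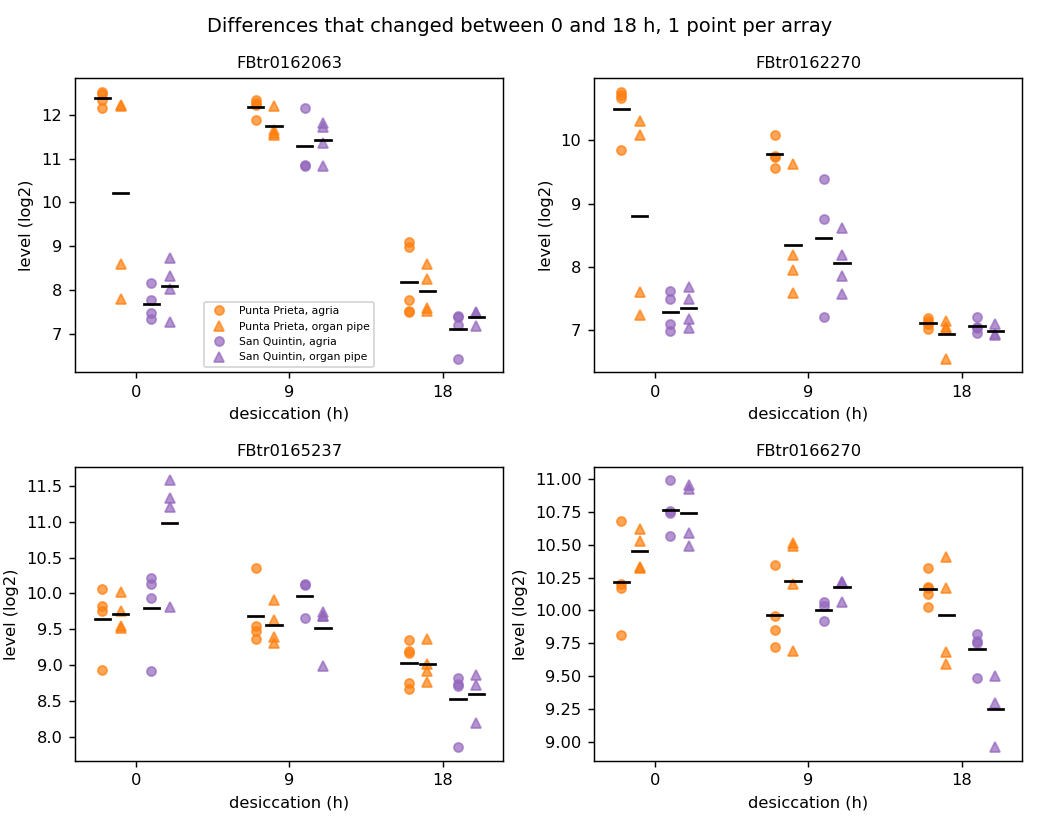
Log2 level (vertical) of the transcripts whose population difference changed most between 0 and 18 h, by hours of desiccation (horizontal), with 1 point per array, orange for Punta Prieta, purple for San Quintin, circles for agria, triangles for organ pipe and bars for group means. In FBtr0162063 and FBtr0162270 the low orange triangles at 0 h are the organ pipe arrays 3 and 4 of Punta Prieta, and at 18 h FBtr0162270 lies between 6.55 and 7.21 in all 16 arrays.

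The desiccation change of the Sonoran populations, which shares no array with the Baja California comparison, gives a reference for the direction of these differences. In Sonora 38.6% of all transcripts were called higher at 18 h than at 0 h and 37.1% lower. Of the 122 transcripts at least 1.5-fold lower in San Quintin than in Punta Prieta, 91 rose in Sonora (74.6%) and 12 fell (9.84%). Of the 79 higher in San Quintin, 11 rose (13.9%) and 37 fell (46.8%). With each array centred, 85.2% of 284 lower transcripts rose (43.5% of all) and 41.7% of 36 higher ones fell (33.2% of all). With quantile normalization, 77% of 126 lower transcripts rose (34.6% of all) and 64% of 86 higher ones fell (36.2% of all). With the shared component of array-to-array spread removed the pattern turned. Of 47 lower transcripts 17% rose and 34% fell, and of 25 higher ones 36% rose and 16% fell. Of all transcripts 20.4% then rose and 28.9% fell. The Sonoran mean at 18 h lay nearer to San Quintin than to Punta Prieta in 26 of the 201 (12.9%), against 26.9% of all transcripts.

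Each array was also scored along the Sonoran 0 to 18 h change, in log2 units summed along that profile. The score largely mirrored the shared component of array-to-array spread (described next), so these measures are not separate results. In Punta Prieta at 18 h, agria array 2 scored highest (60.1) and was lowest on that component (-30.9). Agria array 5 scored lowest (12.7) and was highest on the component (15.7). These component scores came from a fit without the arrays compared here. A score with that component removed was not tested. At 18 h Punta Prieta averaged 35.8 ± 15 (SD, n = 9) and San Quintin 22.5 ± 7.68 (SD, n = 7), a difference of -12.8 that did not pass (exact permutation test within diets, two-sided, p = 0.0621, adjusted over 4 array measures p = 0.0828; the smallest p the design allows is 0.000227). Punta Prieta arrays ran from 12.7 to 60.1, and its agria array 5 and organ pipe array 2 lay below all San Quintin arrays, which ran from 15.4 to 35.7. With each of the 16 arrays left out in turn, the difference still did not pass in 13 cases (same exact permutation test, adjusted p up to 0.176). The difference was smallest, at -10.2, without Punta Prieta agria array 2. It passed without Punta Prieta agria array 5 (-16.1, adjusted p = 0.0201) or organ pipe array 2 (-15.6, adjusted p = 0.0265). It also passed without San Quintin organ pipe array 3 (-16, adjusted p = 0.0381). At 0 h Punta Prieta averaged 15.9 and San Quintin -3.28, and at 9 h they averaged 19.9 and 26.8; differences at these times were not tested. Punta Onah averaged 53.5 and Organ Pipe National Monument 44.2 at 18 h.

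**Figure D5:**
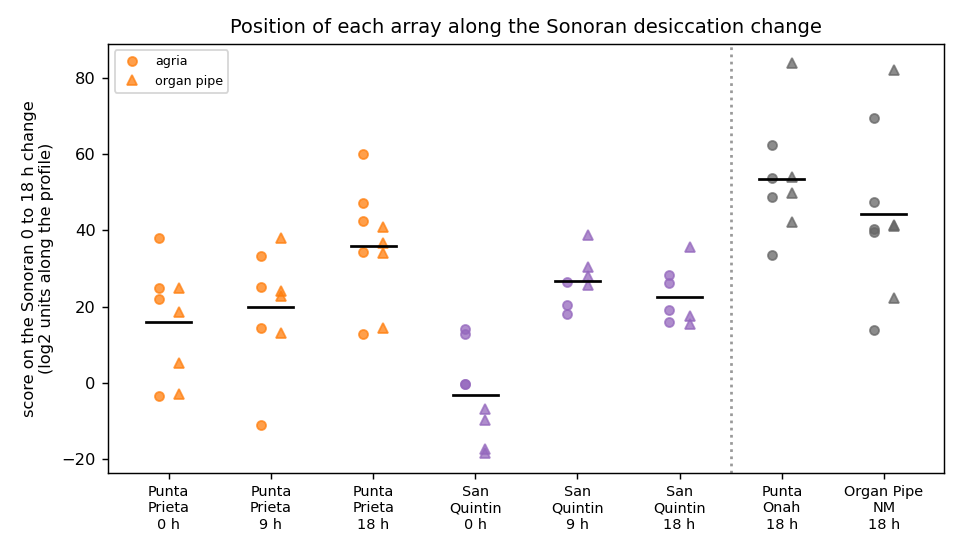
Score of each array along the Sonoran 0 to 18 h change (vertical, log2 units along the profile) by population and hours of desiccation (horizontal), with circles for agria, triangles for organ pipe and bars for means. At 18 h San Quintin arrays lie between 15.4 and 35.7 and Punta Prieta arrays between 12.7 and 60.1; the Sonoran arrays right of the dotted line helped to define the change and are shown for scale.

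A single component held 41.8% of the variance between arrays of the same group, and the 18 h difference followed it across transcripts (r = 0.7). That component was fitted on all arrays of the series. For the array scores it was fitted again without the 16 arrays compared here. On this second fit San Quintin arrays scored 13.2 ± 9.28 (SD, n = 7) and Punta Prieta arrays -7.08 ± 16.1 (SD, n = 9). The difference was 19.7 (exact permutation test within diets, two-sided, p = 0.0145, adjusted over 4 array measures p = 0.029). Without single arrays the adjusted p ran from 0.0106 to 0.0783, and 6 of the 16 arrays, when left out, ended the call. The SD of values over the transcripts of an array was 1.976 in San Quintin and 1.935 in Punta Prieta (adjusted p = 0.0984 by the same exact permutation test). The part of the shared component in the population difference was not tested, but with it removed 1229 transcripts were still called at 18 h, 869 higher and 360 lower, and the correlation with the 0 h difference was 0.405.

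The Sonoran pair at 18 h differed about as often. Organ Pipe National Monument minus Punta Onah called 1617 transcripts (11.1%), 1054 higher (7.25%) and 563 lower (3.88%), and 51.2% of its calls were higher with each array centred, against 65.2% as deposited. Its differences and those of the Baja California pair, which share no array, correlated across transcripts at r = 0.567, and at 0.337 with the shared component removed. Which Sonoran population was subtracted was a free choice, and the other order would turn the sign of both correlations.

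Leaving out each of the 16 arrays in turn showed how far the calls rest on single arrays. The 18 h count ranged from 658 to 2186. It fell by more than 1.5 times without Punta Prieta agria array 4 (696) or organ pipe array 1 (685), and without San Quintin agria array 3 (847), organ pipe array 1 (888) or organ pipe array 2 (658). Calls that held in all 16 fits numbered 392 of the 1594 (24.6%), 285 higher and 107 lower in San Quintin. Of the 201 large differences 101 held in all 16 (50.2%), 50 higher and 51 lower.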

How the data were processed

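The deposited values are on a log2 scale and were made by the authors with RMA (version not stated), per the submitters' processing notes; RMA corrects background, quantile-normalizes probes and summarises the probes of a transcript. Of the sample columns, 0 were left unmapped. No array pair held identical values. With limma 3.58.1 in R 4.3.3, the values of all 95 arrays were fitted as 24 group means (71 residual degrees of freedom). No filter, block or covariate was used. Each comparison over both diets was a contrast with equal weight to each diet, and a single-diet comparison contrasted the groups of that diet. Two-sided p-values received a Benjamini-Hochberg adjustment across all 14528 transcripts, with calls at an adjusted p under 0.05. The code was tested on simulated data. Named transcripts are the 2 largest differences in each direction among called transcripts, with the same sign on both diets for the 18 h difference. Array measures were compared by exact permutation within diets (4410 permutations). Array scores on the shared component came from a fit of that component without the 16 arrays compared. The 15130 genes of the RefSeq table matched 0 identifiers. The members and sets were chosen with earlier results of these data known. Alternatives were centring, quantile normalization, removal of the shared component (the first component of deviations from group means), array or group weights, the groups of a comparison alone, a filter on dim transcripts, a trended prior, a replicate block, equal weight to each array, and omission of arrays. Of the arrays that a deposited note assigns to a second order of the design, none was among the 16.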

Additional observations from a re-analysis of the deposited data

Results flagged for a closer look

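At 0 h the Punta Prieta agria arrays of FBtr0162270 held 1 array at 9.85, below the other 3 at 10.67 to 10.77. At 18 h the San Quintin agria arrays of FBtr0165237 held 1 array at 7.85, below the other 3 at 8.70 to 8.82. These are 2 of 52 sets of arrays examined for a value far from the rest, and chance marks about 1 in 20.

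The population difference changed between 0 and 18 h, by limma's interaction test, in 93 transcripts, and among those named by 2.57 in FBtr0162063, 2.34 in FBtr0162270, -1.18 in FBtr0165237 and -1.004 in FBtr0166270.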

How the results depend on the processing

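None of the 8 single-transcript differences followed through the alternatives changed sign. Of the 4 array measures, the shared component score and the Sonoran score were followed through centring alone, and neither changed sign. The array median and the SD over transcripts were followed only through the omission of single arrays. The balance of 18 h calls turned from 66.7% higher to 22.3% with centring, and with the shared component removed the 18 h and 9 h differences correlated at 0.176 in place of -0.206 and the Sonoran pattern of the large differences turned. Calls at 18 h were 5968 with array weights and 799 from the groups of the comparison alone; the other 9 alternatives stayed within 1.5 times of 1594. Array weights also gave 5763 at 0 h, 1310 at 9 h, 289 for 18 h less 0 h, 5561 for 18 h less 9 h, 4438 on agria, 3210 on organ pipe, 808 for the diet interaction and 2770 for the Sonoran pair. The groups of each comparison alone gave 6 at 9 h, 26 and 5 for the changes from 0 and 9 h, 0 on agria, 0 on organ pipe and 916 for the Sonoran pair; these fits hold fewer arrays. Removing the shared component gave 1072 at 0 h, 12 at 9 h, 183 for 18 h less 0 h, 79 on agria and 868 on organ pipe. Weights per group, chosen after seeing the data, gave 4188 at 0 h, 13 at 9 h, 3 for 18 h less 9 h, 0 on organ pipe and 632 for the Sonoran pair. Centring gave 5 at 9 h, 1 for 18 h less 9 h and 285 on agria, and 35.2% of 0 h calls were then higher, against 56.9%. Quantile normalization gave 7 at 9 h, 73 on agria and 56 on organ pipe. Equal weight to each array gave 5 at 9 h, omission of second-order arrays 1170 at 0 h, and omission of the Punta Prieta organ pipe arrays 3 and 4 gave 4015 at 0 h and 213 for 18 h less 0 h. The causes were not tested.

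Leaving out 1 array at a time gave 658 to 2186 calls at 18 h, 1044 to 4529 at 0 h, 3 to 7 at 9 h, 64 to 136 for 18 h less 0 h, 0 to 35 for 18 h less 9 h, 4 to 1030 on agria, 0 to 697 on organ pipe, 0 for the diet interaction and 1201 to 2547 for the Sonoran pair. The array medians then differed by 0.0768 to 0.102, the SD over transcripts by 0.0236 to 0.0538, the shared component by 16.8 to 23.4 and the Sonoran score by -16.1 to -10.2.

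Replicate numbers gave no clear sign of pairing the arrays. Deviations of 21 same-numbered pairs correlated at -0.491 to 0.373, 9 of them over 0.1. Those of 74 pairs with different numbers correlated at -0.578 to 0.537, 27 of them over 0.1. With the replicate block 1467 transcripts were called at 18 h and 79 on agria, and no other count moved by over 1.5 times.

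The number of arrays limits the precision, and no detection calls were used, so the level of dim transcripts above background is unknown.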
